A study of Drosophila melanogaster with 4 samples.

Results

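The regions described here are H3K18ac clusters from heterochromatic and near-heterochromatic parts of the fly genome in adult heads. H3K18ac is histone H3 acetylated at lysine 18, and a cluster is a region that the authors called enriched for it over input chromatin. Members were taken by position. They are all enriched clusters on chromosome 4, on the sequences XHet, 2LHet, 3LHet, 3RHet and YHet, and those whose midpoint lies in the 10% of the arm next to the centromere, called the proximal part, of X (from 20180546), 2L (from 20710391) and 3L (from 22089203). The proximal parts of 2R and 3R and the sequence 2RHet were not taken. 2RHet held 6 clusters in replicate 1, 11 in replicate 2 and 13 in the replicate set. All coordinates are those of FlyBase release 5. Of the 8107 clusters of the replicate set, 363 met this rule, with 102 in the proximal part of X, 79 in that of 2L, 79 in that of 3L, 68 on chromosome 4 and 35 on the Het sequences. Replicate 1 had 254 members among 6380 clusters, and replicate 2 had 277 among 6248.

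The study mapped the mark by chromatin immunoprecipitation and sequencing (ChIP-seq) in 2 ChIP libraries, with 2 input libraries that carry the same replicate numbers. All 4 libraries came from wild-type Oregon-R flies, the modENCODE stock of a common laboratory strain, labelled as mixed adults. Flies were raised in population cages and their heads were collected by sieving, so each library pools many animals and all cell types of the head. There was no other genotype or treatment. The authors deposited 3 region lists, 1 for each ChIP replicate and 1 for a replicate set that draws on both. Each region carries the authors' score, of unstated scale and log base. Scores are compared within a list unless stated otherwise. Nothing in the labels says whether the replicates were separate fly collections, so their spread can be technical. Read depth is unknown, and no test between samples was possible in a single group of 2 libraries. Differences are therefore read against the standard deviation (SD) of the replicates.

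In flies H3K18ac is made by the acetyltransferase Nejire (CBP), and it generally marks active promoters and enhancers. Heterochromatin around the centromeres consists largely of satellite repeats and transposons, is bound by HP1a, carries methylated H3K9 and nevertheless holds scattered active genes, many with long introns full of repeats. Chromosome 4 also carries HP1a over much of its length, but many of its genes are transcribed and are bound in addition by the protein POF. In release 5 the large arms run into the edge of this heterochromatin at their centromeric ends. The Het sequences are assembled heterochromatin that was not joined to the arms.

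Called clusters were sparse in each of these regions taken whole, though not in every part of them, and the sparseness was graded. Clusters covered 9.78% ± 0.378 of the proximal part of X, against 26.3% ± 0.175 of the rest of X (SD, n = 2). They covered 12.8% ± 0.651 of the proximal part of 2L, against 25.8% ± 1.82 of its rest, and 13.7% ± 0.584 of the proximal part of 3L, against 27.2% ± 1.98 of its rest (SD, n = 2). Chromosome 4 was covered to 10.4% ± 3.17 and the Het sequences together to 0.944% ± 0.264, against 25.9% ± 1.52 of the 5 large arms taken whole (SD, n = 2). In each replicate and in the set, every one of these regions lay below its comparison sequence. Coverage was taken over all bases of a sequence, and how far reads can be placed uniquely in them was not measured.

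**Figure D1:**
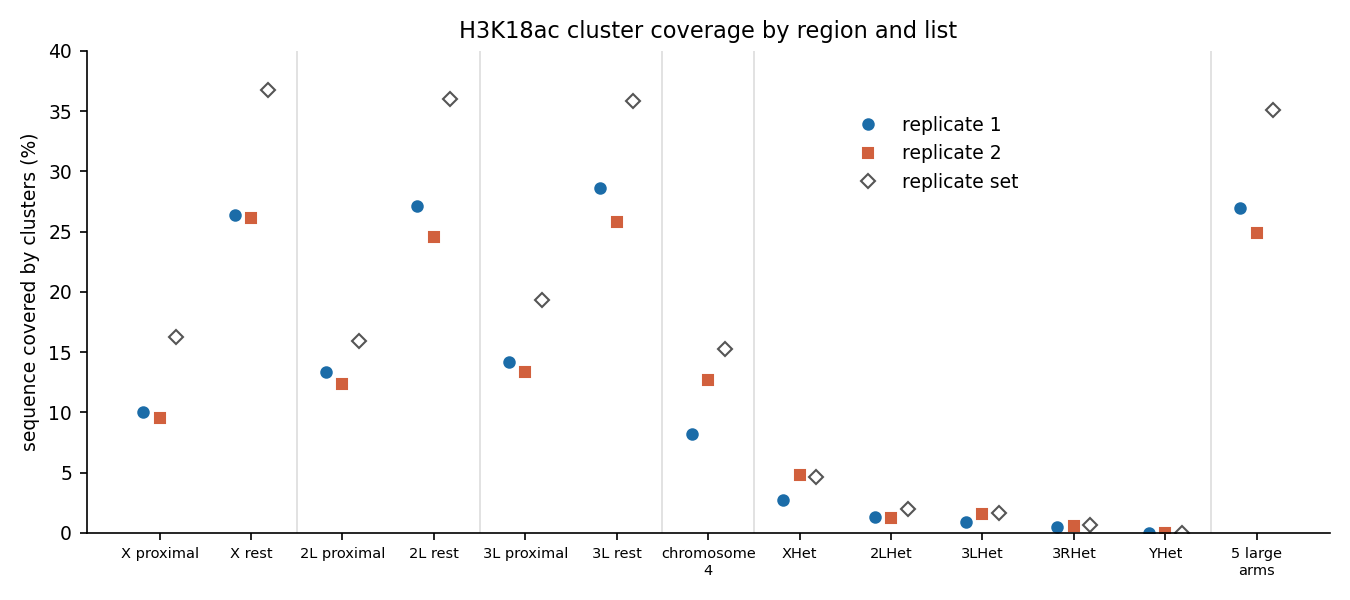
Share of each region covered by H3K18ac clusters (vertical axis, %) in replicate 1 (circles), replicate 2 (squares) and the replicate set (open diamonds). Each proximal part stands left of the rest of its arm; the replicates cover 9.51% to 14.1% of the proximal parts, 8.20% and 12.7% of chromosome 4 and at most 4.83% of any Het sequence, against 24.8% and 27.0% of the large arms.

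In the proximal parts of the arms the lower coverage came with fewer clusters, on X also with narrower ones, and not with uniformly weaker ones. The proximal parts held 24.5 clusters per Mb on X, 27.6 ± 0.307 on 2L and 30.6 ± 1.15 on 3L, against 58.3 ± 0.385, 53.0 ± 1.37 and 50.6 ± 1.73 in the rest of the same arms (SD, n = 2; both replicates had 55 clusters in the proximal part of X). Median width on the proximal X was 2092 bp in replicate 1 and 1927 bp in replicate 2, compared with 2681 and 2616 bp in its rest. The ratio of median widths, proximal part over rest, was 1.04 and 0.910 on 2L and 0.820 and 1.14 on 3L, in the same order of replicates. The median score of proximal X clusters was 0.692 in replicate 1 and 0.673 in replicate 2, compared with 0.721 and 0.699 in the rest of X. On 2L it was 0.630 in replicate 1 and 0.581 in replicate 2, compared with 0.588 and 0.569 in the rest. On 3L it was 0.576 in replicate 1 and 0.597 in replicate 2, compared with 0.598 and 0.559 in the rest. The difference was thus below 0 on X and above 0 on 2L in both replicates, and of opposite sign in the replicates on 3L. The mean differences were -0.03 ± 0.0023 on X, 0.03 ± 0.022 on 2L and 0.0078 ± 0.042 on 3L (SD, n = 2), so on 3L the difference did not exceed the replicate spread, and on 2L it did so only barely. With the proximal 20% of the arm in place of the 10%, the 2L difference changed sign, to -0.0039.

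Clusters of 10 kb or more, called broad here, were about as frequent near the centromere of 2L as in the whole lists. In replicate 1 there were 7 among 63 clusters on 2L, 8 among 73 on 3L and 2 among 55 on X, and in replicate 2 there were 7 among 64, 6 among 77 and 5 among 55 in the same order. Over all clusters of a list the broad share was 11.9% in replicate 1 and 10.3% in replicate 2. The proximal shares were 11.1% and 10.9% on 2L, near this background, 11.0% and 7.79% on 3L, and 3.64% and 9.09% on X, where they rest on the fewest clusters. The set had 9 broad clusters of 79 on 2L, 9 of 79 on 3L and 5 of 102 on X, against 12.8% over all its clusters.

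Coverage within the proximal parts was far from even. When each proximal part was divided into 2 sections of equal length, the inner section, next to the centromeric end of the arm, was covered to 2.70% ± 0.124 on X, 2.63% ± 0.158 on 2L and 0.730% ± 0.158 on 3L, against 16.9% ± 0.879, 23.1% ± 1.46 and 26.7% ± 1.33 in the outer sections (SD, n = 2). The outer section of 3L was thus covered about as much as the rest of that arm, whereas its inner section, of 1.23 Mb, was covered about as little as the Het sequences. The inner section of 3L held 4 clusters in replicate 1, 5 in replicate 2 and 5 in the combined set. The inner sections of X and 2L held 10 and 12 clusters in replicate 1, 13 and 12 in replicate 2, and 39 and 18 in the set. These sections were chosen after the coverage had been seen.

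In steps of 1% of the arm, the change on 3L and 2L fell within a few steps. On 3L the 6 steps nearest the arm end had mean coverage of at most 2.95% ± 0.274, and the seventh had 20.0% ± 2.27, the eighth 14.3% ± 0.598, the ninth 48.9% ± 4.97 and the outermost 47.6% ± 0.266 (SD, n = 2). On 2L the 7 nearest steps had at most 4.76% ± 0.134, the eighth 17.9% ± 2.04, the ninth 43.3% ± 1.04 and the outermost 45.0% ± 5.21 (SD, n = 2). X did not show a single step. On X the fourth step was empty in all 3 lists, the sixth was covered to 30.3% ± 3.54, the ninth to 3.10% ± 0.922 and the outermost to 25.3% ± 0.197 (SD, n = 2). Between neighbouring steps the replicates sometimes moved in opposite directions, as from the seventh step of X to the eighth (14.4% and 11.0% in replicate 1, 11.8% and 13.9% in replicate 2).

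**Figure D2:**
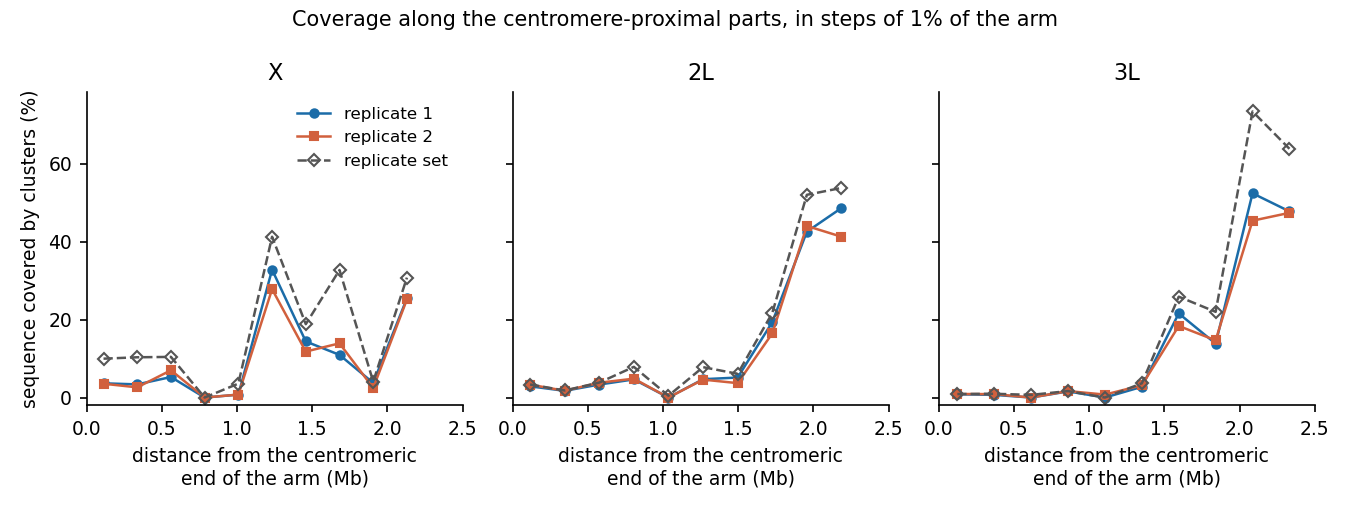
Share of sequence covered by clusters (vertical axis, %) against the distance from the centromeric end of the arm (Mb) for X, 2L and 3L, in 10 steps per arm, each 1% of the arm. On 3L the 6 steps next to the end stay at or below 3.65% in all 3 lists and the 2 outermost lie between 45.4% and 73.4%; on X coverage peaks at 27.8% to 41.3% in the sixth step.

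The dense outer part of 3L held long acetylated domains. The widest member of all in the replicate set ran on 3L from 22162834 to 22218478 (55.6 kb, score 0.615). It was broken into 9 clusters in replicate 1 and 7 in replicate 2, which covered 78.4% and 75.2% of it. Domains of 42.7 kb (22440838 to 22483548), 35.7 kb (22309250 to 22344928) and 34.7 kb (22127816 to 22162532) followed, and the last of these ends shortly before the 55.6-kb domain. All 3 were divided in both replicates, with coverage of 91.3% to 94.9% in replicate 1 and 72.2% to 89.2% in replicate 2.

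The next domain of 3L in width differed from these in form. It ran from 22812338 to 22838002 (25.7 kb) and was a single cluster in each list, scoring 1.51 in replicate 1, 1.17 in replicate 2 and 1.31 in the combined set. Replicate 1 and replicate 2 both covered 99.2% of it. It had the highest score of the proximal part of 3L in all 3 lists. Next in the set came a cluster of 2.87 kb from 22870354 to 22873222 (0.934 in the set, 1.07 in replicate 1, 0.902 in replicate 2) and one of 3.50 kb from 23197854 to 23201356 (0.928 in the set, 0.709 in replicate 1, 1.12 in replicate 2).

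On 2L the highest score belonged to a domain that lies across the limit of the proximal part, from 20702012 to 20723378 (21.4 kb). It was 1 cluster in each list and scored 1.48 in the set, with 1.33 in replicate 1 and 1.62 in replicate 2. Its midpoint makes it a member, and only its bases within the limit were counted in the coverage given above. The widest domain of 2L ran from 20980936 to 21011260 (30.3 kb, score 0.723) and consisted of 2 clusters in each replicate, which covered 97.0% of it in replicate 1 and 92.4% in replicate 2. The other wide ones ran from 20895738 to 20919186 (23.4 kb, 0.920), 20791364 to 20814042 (22.7 kb, 0.987) and 21023172 to 21042740 (19.6 kb, 0.870). Further scores above 1 in the set belonged to a domain of 18.7 kb from 20873392 to 20892042 (1.06) and to narrower clusters, among them one of 5.25 kb from 21216050 to 21221302 (1.05). Another, of 5.78 kb from 22144948 to 22150728, lay in the sparse inner section and scored 1.04 in the set, with 1.10 in replicate 1 and 1.06 in replicate 2. The cluster of 5.25 kb scored 1.08 in replicate 1 and 1.13 in replicate 2.

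The strong domains of the proximal X lay in separate islands. The widest, from 20348044 to 20383742 (35.7 kb), also had the highest score, with 1.19 in the set. Replicate 1 called it as 1 cluster of 35.5 kb with a score of 1.26, and replicate 2 as 2 clusters with scores of 1.04 and 1.21. Close by, the domain from 20318204 to 20331698 (13.5 kb) scored 1.03. The sixth step from the arm end, the island visible in the plot along the arms, held a domain from 21130996 to 21154926 (23.9 kb, score 1.10), one from 21090114 to 21105564 (15.5 kb, 0.726) and a cluster from 21244546 to 21251008 (6.46 kb, 1.04). The domain from 20714510 to 20734404 (19.9 kb, 0.626) was split into 6 clusters in each replicate, none wider than 2.54 kb in replicate 1 or 5.61 kb in replicate 2. Replicate clusters covered 56.7% of it in replicate 1 and 82.7% in replicate 2.

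A few clusters lay close to the arm ends, and on X and 2L some of these were near each other. On 3L the last cluster, from 24529614 to 24531822, ended 11.7 kb before the end of the arm and was called in both replicates, with scores of 0.494 in replicate 1, 1.05 in replicate 2 and 0.760 in the combined set. Between it and its neighbour, from 24066130 to 24068508 (0.442 in replicate 1, 0.744 in replicate 2, 0.541 in the set), lay 461 kb without a cluster in any list. On 2L the last 3 clusters of the set, from 22873766 to 22876248, 22960020 to 22962960 and 22967424 to 22969700, were each found in both replicates, and the last ended 41.8 kb before the end of the arm. In order they scored 0.789, 0.634 and 0.584 (replicate 1), 1.06, 0.587 and 0.695 (replicate 2) and 0.916, 0.492 and 0.604 (set). On X the last cluster, from 22414122 to 22416122, was 6.71 kb from the end and scored 0.577 in replicate 1, 0.402 in replicate 2 and 0.385 in the combined set. The next on X, from 22409540 to 22410632 and from 22407952 to 22409064, were in the set only, with scores of 0.298 and 0.463. Next to these lay a stronger cluster from 22404612 to 22407228, called in both replicates, which scored 0.678 in replicate 1, 1.04 in replicate 2 and 0.857 in the combined set.

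The longest stretches without a cluster in any of the 3 lists were 343 kb on X (21501695 to 21845123), 261 kb on 2L (21758043 to 22019337) and 461 kb on 3L. In the set alone the longest on 3L was 506 kb, from 23201357 to 23707391, where replicate 2 had a cluster of score 0.114. How far reads can be placed uniquely in these stretches was not measured.

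Chromosome 4 carried many small clusters. Replicate 1 had 41 (30.3 per Mb) and replicate 2 had 56 (41.4 per Mb), against 53.0 and 51.7 per Mb on the large arms. Their median width was 2002 bp in replicate 1 and 2093 bp in replicate 2, compared with 2711.5 and 2619 bp on the large arms. The median score was 0.463 in replicate 1 and 0.486 in replicate 2, compared with 0.620 and 0.589 on the large arms. The mean difference in median score was -0.13 ± 0.039 (SD, n = 2), and it was -0.11 among clusters of 1301 bp to 10 kb. Scores on chromosome 4 rose with width (Spearman correlation 0.645 in replicate 1 and 0.819 in replicate 2). The part of width in the score difference was not tested. Broad clusters were few on chromosome 4, with 0 of 41 in replicate 1, 2 of 56 in replicate 2 and 3 of 68 in the set. Over all clusters of these lists the broad share was 11.9%, 10.3% and 12.8%. Among clusters under 10 kb alone, an alternative chosen after the data had been seen, chromosome 4 was covered 0.627 times as much as the large arms, against 0.407 ± 0.146 with all clusters (SD, n = 2).

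The widest domain of chromosome 4 ran from 1000402 to 1018618 (18.2 kb, score 0.691 in the set). It was 1 cluster of 18.4 kb with a score of 0.910 in replicate 2, and 3 clusters of at most 6.14 kb with scores between 0.370 and 0.659 in replicate 1, which covered 51.1% of it. A domain of 13.4 kb from 521980 to 535350 (0.527) was likewise 1 cluster of 13.2 kb in replicate 2 and 2 clusters in replicate 1, where 54.4% was covered. The domain of 13.2 kb from 842318 to 855486 (0.728) was covered to 54.1% by 1 cluster of 7.13 kb in replicate 1 and to 86.0% by 2 clusters in replicate 2. Replicate 2 covered the larger share of all 3 domains.

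The 3 chromosome 4 clusters with the highest scores in the set were each a single cluster in both replicates, although the order of scores differed within the replicate lists. A cluster of 6.46 kb from 573734 to 580190 scored 0.965 in the set, with 1.05 in replicate 1 and 0.961 in replicate 2. One of 8.93 kb from 89204 to 98132 scored 0.872 in the set, with 0.906 in replicate 1 and 0.887 in replicate 2. One of 3.17 kb from 923820 to 926986 scored 0.829 in the set, with 0.783 in replicate 1 and 0.923 in replicate 2. Replicate clusters covered at least 91.6% of each. The other wide clusters of the set were from 101594 to 109170 (7.58 kb, 0.618), from 535782 to 541482 (5.70 kb, 0.381) and from 826170 to 831780 (5.61 kb, 0.412). The second of these had no cluster in replicate 1.

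Along chromosome 4 the called clusters reached neither end of the sequence. The first cluster of the set began at 62932 and the last ended at 1237370, so that 114 kb at the far end held none in the set. The last cluster ended at 1237405 in replicate 2, but at 1144400 in replicate 1, where 207 kb held none. In windows of 100 kb, mean coverage was highest from 500001 to 600000 (22.7% ± 10.5) and from 1000001 to 1100000 (21.7% ± 6.87), and lay at 3.45% ± 0.455 from 1100001 to 1200000 (SD, n = 2). Replicate 2 covered more than replicate 1 in 13 of the 14 windows, and the last window was empty in both.

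**Figure D3:**
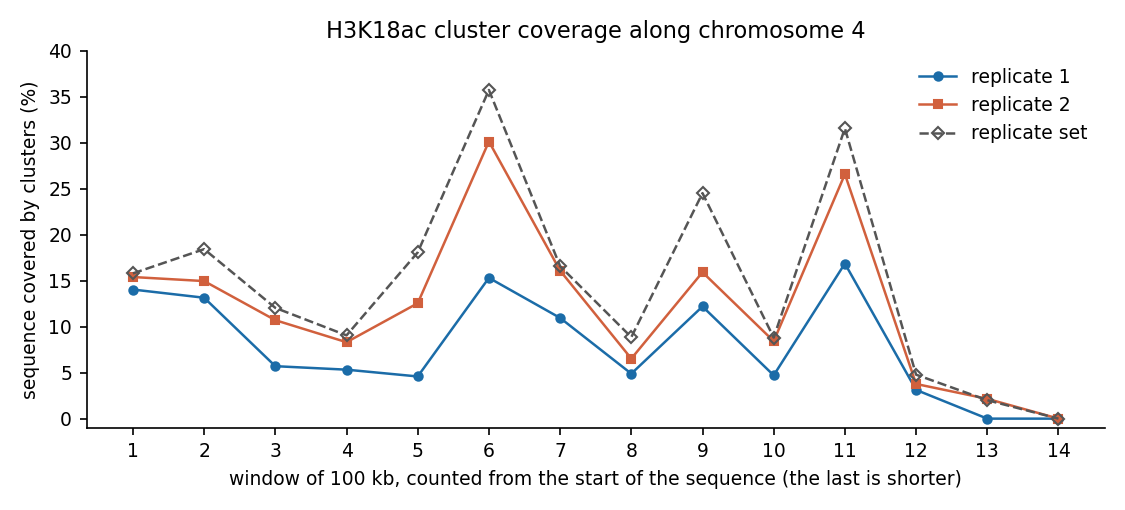
Share of each 100-kb window of chromosome 4 covered by clusters (vertical axis, %), by window counted from the start of the sequence, in replicate 1 (circles), replicate 2 (squares) and the replicate set (open diamonds, dashed). Replicate 2 lies above replicate 1 in 13 of 14 windows, with the widest gap in window 6 (30.1% in replicate 2 and 15.3% in replicate 1).

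The 5 Het sequences taken here, of 5.99 Mb together, held 22 clusters in replicate 1, 25 in replicate 2 and 35 in the combined set. They were few but of ordinary strength for their lists, with a median score of 0.582 in replicate 1 and 0.636 in replicate 2, compared with 0.620 and 0.589 on the large arms. The difference was of opposite sign in the replicates and smaller than its spread (0.0045 ± 0.060, SD, n = 2). Their median width was 2113.5 bp in replicate 1 and 2139 bp in replicate 2, and only 1 cluster in either replicate reached 10 kb. XHet was covered to 3.78% ± 1.48, 2LHet to 1.26% ± 0.0889, 3LHet to 1.22% ± 0.486 and 3RHet to 0.518% ± 0.0267 (SD, n = 2). YHet, of 0.347 Mb, held no cluster in any list.

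Some of the Het clusters were gathered in short stretches. On XHet all 5 clusters of the set lay within 19.7 kb, from 56166 to 75898, which is 9.67% of that sequence. The 3 of them that both replicates called, from 56166 to 58362, 60256 to 62382 and 67400 to 69626, scored in this order 0.693, 0.589 and 0.497 (replicate 1), 0.604, 0.672 and 0.845 (replicate 2) and 0.608, 0.552 and 0.546 (set). The other two, from 70230 to 71526 and 74266 to 75898, were called in replicate 2 and not in replicate 1.

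On 3LHet, 7 of the 19 set clusters lay within 24.1 kb, from 205988 to 230136. Replicate 2 covered 82.0% of this stretch with 3 clusters, among them the 13.7-kb cluster from 205930 to 219668 with a score of 0.828. Replicate 1 covered 21.2% of it with 2 clusters of 2.40 and 2.71 kb, whose scores were 0.614 and 0.622. The 2 clusters of the set with the highest scores on 3LHet lay outside this stretch. The cluster from 458726 to 461166 scored 1.03 in the set, with 0.798 in replicate 1 and 1.27 in replicate 2, the highest score of any Het cluster. The one from 409734 to 412208 scored 0.782 in the set, with 0.652 in replicate 1 and 0.984 in replicate 2. The widest stretch of 3LHet with no cluster in any list was 619 kb, from 1570985 to 2189589, and it ended at a cluster of 2.63 kb (0.479 in the set).

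On 3RHet the first 1705 kb held no cluster in any list, and 6 of the 8 set clusters lay between 1704728 and 1936354. Both replicates called these 6 and no others on 3RHet. The highest score was at 1767494 to 1770400 (0.979 in the set, 0.983 in replicate 1, 1.07 in replicate 2), followed by 1822684 to 1824898 (0.875, with 0.807 in replicate 1 and 0.966 in replicate 2) and 1806978 to 1809466 (0.705, with 0.576 in replicate 1 and 0.889 in replicate 2). The remaining 3 had scores of 0.426, 0.166 and 0.496 in replicate 1 and of 0.581, 0.554 and 0.531 in replicate 2, in the order of their positions. The pair from 2374954 to 2376148 and 2380436 to 2381506 was in the set only.

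2LHet had 3 clusters in the set. The strongest ran from 30688 to 33590 and scored 0.852 in the set, with 0.825 in replicate 1 and 0.930 in replicate 2. The widest, from 168000 to 171320, scored 0.321 in the set, with 0.495 in replicate 1 and 0.230 in replicate 2. The third, from 254908 to 256104 (0.367), was in neither replicate.

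The replicates were next compared within each class of sequence. In the proximal parts, 149 of 191 replicate 1 clusters (78.0%) overlapped a replicate 2 cluster by at least 1 bp, and 162 of 196 replicate 2 clusters (82.7%) overlapped one of replicate 1. Over the whole lists these shares were 78.7% and 84.6%, so the proximal parts lay near the background. Chromosome 4 lay away from it in both directions. Of the replicate 1 clusters, 38 of 41 on chromosome 4 (92.7%) and 21 of 22 on the Het sequences (95.5%) had a counterpart, above the background. Of the replicate 2 clusters, 35 of 56 on chromosome 4 (62.5%) had one, below it. On the Het sequences 20 of 25 (80.0%) had one, near the 84.6% of the whole list. Few clusters lie behind both Het shares. Clusters of replicate 2 on chromosome 4 without a counterpart had a median score of 0.382 and a median width of 1810 bp, against 0.599 and 2510 bp for those with one. In replicate 1 the order was the other way, with 0.553 and 2131 bp for the 3 without, against 0.455 and 1987 bp.

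The widest chromosome 4 clusters seen in replicate 2 only were from 416201 to 419888 (score 0.786), 535993 to 538817 (0.475) and 1235252 to 1237405 (0.448). Those seen in replicate 1 only were from 1081304 to 1085120 (0.553), 435659 to 437789 (0.599) and 151779 to 153403 (0.518), and there were no others. On the Het sequences the widest seen in replicate 2 only were on 3LHet from 223527 to 228431 (0.646) and from 1052499 to 1055014 (0.848), and on XHet from 74257 to 75933 (0.387). The 1 seen in replicate 1 only was on 3LHet from 1397432 to 1398953 (0.499). In the proximal parts the widest seen in replicate 1 only were on 3L (22100191 to 22103464, score 0.711) and 2L (20868597 to 20871643, 0.789, and 20935560 to 20938264, 0.639). Those seen in replicate 2 only were on X (21856271 to 21859749, 0.609) and 3L (22598799 to 22601512, 0.587, and 22621213 to 22623730, 0.659). The replicate set covered at least 79.6% of each of these.

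The scores of clusters matched 1 to 1 between the replicates also differed by class, provided that the lists have a common score scale, which was not checked. Over all 3247 such pairs, replicate 2 had the higher score in 30.4%. In the proximal parts it did so in 36 of 100 pairs, on chromosome 4 in 21 of 33 and on the Het sequences in 13 of 19. The median difference, replicate 2 minus replicate 1, was -0.03 in the proximal parts, 0.07 on chromosome 4 and 0.10 on the Het sequences, against -0.07 on the large arms. Among the Het sequences this was uneven. On 3RHet all 6 pairs scored higher in replicate 2, against 4 of 8 on 3LHet, 2 of 3 on XHet and 1 of 2 on 2LHet. Replicate 2 also had the wider cluster in 26 of 33 pairs on chromosome 4 and 14 of 19 on the Het sequences, against 39.1% of all pairs. Across pairs, which share their libraries and are not independent samples, the Spearman correlation of the scores was 0.664 in the proximal parts (100 pairs), 0.604 on chromosome 4 (33 pairs) and 0.696 on the Het sequences (19 pairs), against 0.793 on the large arms (3189 pairs).

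**Figure D4:**
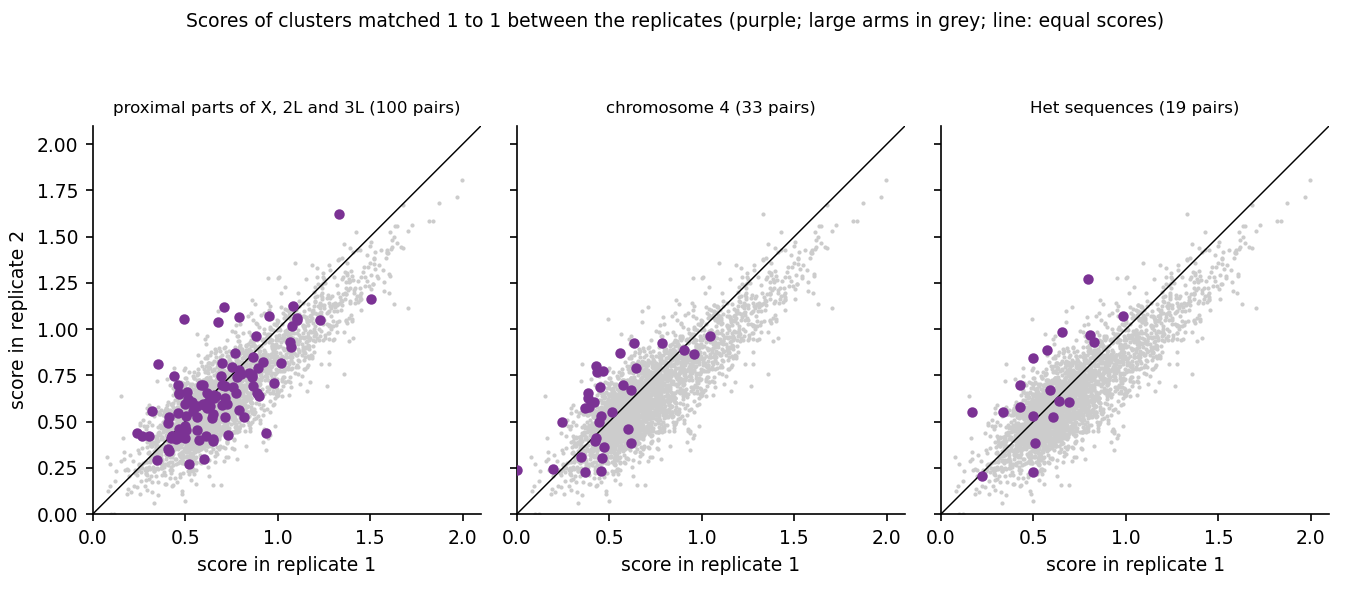
Score in replicate 2 (vertical axis) against score in replicate 1 (horizontal axis), in the authors' units, for clusters matched 1 to 1 (purple) of the proximal parts, chromosome 4 and the Het sequences, over those of the 5 large arms (grey); the line marks equal scores. Above the line lie 36 of 100 proximal pairs, 21 of 33 on chromosome 4 and 13 of 19 on the Het sequences, against 948 of 3189 on the large arms.

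The bases covered by each replicate were divided in the same way within the proximal parts. Replicate 2 covered 1.07 times as many bases as replicate 1 in the inner section of X, 1.09 times in that of 2L and 1.36 times in that of 3L. In the outer sections it covered 0.929 times as many on X, 0.914 on 2L and 0.932 on 3L. The ratio was 1.55 on chromosome 4, 1.77 on XHet, 1.78 on 3LHet, 1.08 on 3RHet and 0.905 on 2LHet, against 0.921 on the 5 large arms. Every sequence of the inner sections, chromosome 4 and Het group was thus covered more in replicate 2, except 2LHet and the empty YHet. The outer sections and the rests of X, 2L and 3L were covered more in replicate 1. The inner sections rest on few bases, from 7.58 kb (3L) to 29.3 kb (X) in replicate 1. Without the 13.7-kb cluster of replicate 2 the ratio on 3LHet was 1.17.

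**Figure D5:**
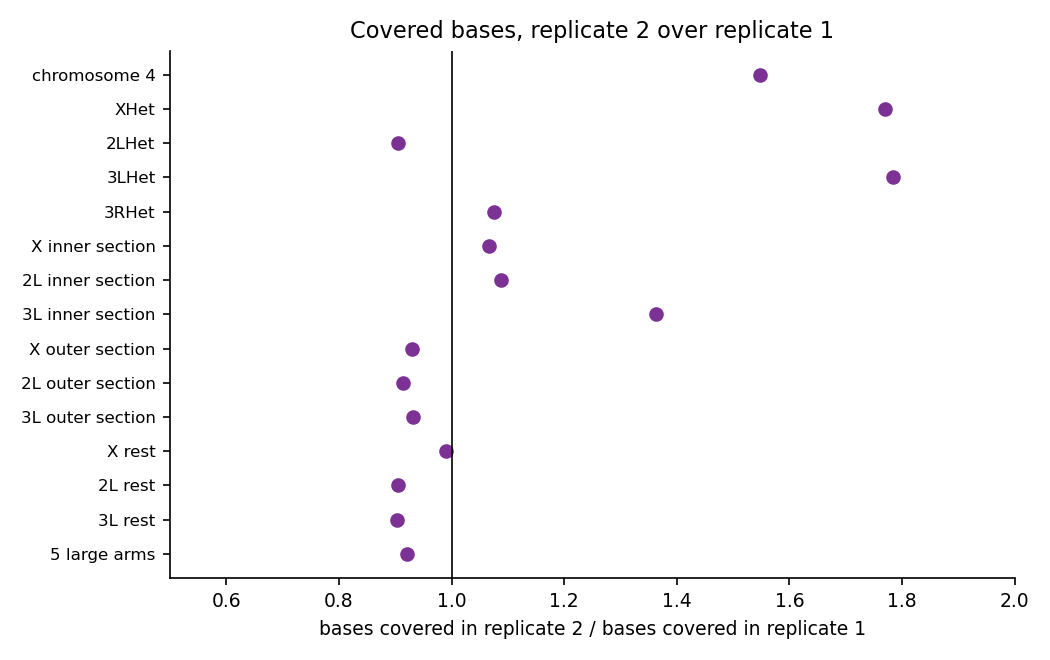
Bases covered in replicate 2 divided by bases covered in replicate 1 (horizontal axis) for chromosome 4, the Het sequences, the inner and outer sections of the proximal parts, the rests of the arms and the 5 large arms; the line marks a ratio of 1. Chromosome 4, XHet, 3LHet, 3RHet and the 3 inner sections lie between 1.07 and 1.78, 2LHet at 0.905, and the outer sections, the rests and the large arms between 0.902 and 0.991.

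Set clusters seen in neither replicate were most frequent on the proximal X. Of the 102 set clusters there, 43 (42.2%) overlapped neither replicate list, against 29.3% of all set clusters. On the proximal 2L this was 14 of 79 (17.7%), on the proximal 3L 22 of 79 (27.8%), on chromosome 4 11 of 68 (16.2%) and on the Het sequences 5 of 35 (14.3%). Both replicates overlapped 114 of 260 proximal set clusters (43.8%), 35 of 68 on chromosome 4 (51.5%) and 21 of 35 on the Het sequences (60.0%), against 48.0% of all. The 43 on X had a median width of 1283 bp and a median score of 0.453, against 6106 bp and 0.692 for the 30 set clusters of the proximal X found in both replicates. They held 17.4% of the bases covered there in the set. Of the 43, 22 were narrower than 1301 bp, the narrowest cluster of either replicate list, and the part of this width limit in the count was not tested. On chromosome 4, 19 of 68 set clusters (27.9%) were found in replicate 2 only and 3 (4.41%) in replicate 1 only, against 9.21% and 13.5% of all set clusters.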

How the data were processed

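Chromatin of adult Oregon-R heads was profiled by ChIP-seq for H3K18ac in 2 ChIP and 2 input libraries. Per the file headers, the 3 deposited region lists are on FlyBase release 5. Per the submitters' processing notes Bowtie 0.12.7 was used, in a role not stated. Caller, thresholds and read depth are likewise not given in the sources used here. The deposited score is above 0 for enriched and below 0 for depleted regions. Per the labels, each input carries the replicate number of 1 ChIP library.

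Counts, coverage and overlaps were computed in Python (version 3.11.15) with the packages numpy (2.4.6), pandas (version 2.3.3) and, for intervals, scipy (1.17.1); matplotlib (3.10.9) drew the figures. Members, limits and named regions were chosen with earlier results of these data known. Coverage counts bases within the limits, and sequence lengths come from the file headers. Named regions are the 5 widest, 3 highest-scoring and 3 end-most set clusters of each proximal part, the 8 widest and 3 highest on chromosome 4, the 3 widest and the highest on each Het sequence, the widest cluster-free stretches, and the 3 widest clusters per class seen in 1 replicate only. Others named on X, 2L and the Het sequences were chosen after their values were seen. No test was run. The counting was tested on simulated lists. Genes were at hand for release 6 alone, so no gene or sequence is assigned to a region. Alternatives were other proximal limits, lists, thresholds, widths and overlap rules.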

Additional observations from a re-analysis of the deposited data

Results flagged for a closer look

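The score contrast between the proximal part and the rest of the arm ran in opposite directions on X and 2L. It was below 0 in both replicates on X and above 0 in both on 2L, and the mean difference on 2L exceeded that on X by 0.0547. The opposite signs depended on the limits chosen. With the proximal 20% of the arm the difference was below 0 on both (-0.0145 on X and -0.0039 on 2L), and among clusters of 1301 bp to 10 kb it was -0.0216 on X and 0.0042 on 2L. The difference between the arms was not tested.

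Depleted regions entered no comparison above. The replicate set called 1 of its 18 depleted regions within the sequences described here, on 3L (23331820 to 23333588, score -0.079). It stands here as a call outside the enriched regions used above. It lies in the inner section of the proximal part, where replicate 2 called an enriched cluster over it with a score of 0.114, far below that list's median of 0.588. Replicate 1 had no enriched cluster there, and neither replicate called a depleted region in these sequences.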

How the results depend on the processing

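Of 72 alternative values, 36 stayed within the replicate spread or other limit set for them. A further 35 moved beyond it without a change of sign, and 1 moved beyond it and changed sign. The values within it include every coverage ratio and score difference without 1 replicate. That outcome was fixed in advance, because with n = 2 each replicate lies closer to the mean than the SD. Among the values within the spread, some score differences on 3L also changed sign. All 36 alternative coverage ratios stayed below 1. The ratios of proximal part to rest (0.372 on X, 0.497 on 2L, 0.505 on 3L) became 0.105, 0.103 and 0.0271 for the proximal 5% of the arm, 0.631, 0.763 and 0.642 for the proximal 20%, 0.441, 0.441 and 0.539 in the replicate set, and 0.420, 0.521 and 0.604 in clusters per Mb. With clusters of at least the list's median score they were 0.349 on X and 0.487 on 3L, and with clusters under 10 kb 0.406 on X and 0.630 on 3L. Without 1 replicate they ranged from 0.364 to 0.381 on X, 0.490 to 0.504 on 2L and 0.494 to 0.516 on 3L. The chromosome 4 ratio of 0.407 was 0.687 in clusters per Mb, 0.627 under 10 kb and 0.304 to 0.511 in single replicates. The Het ratio of 0.0368 was 0.0750, 0.0561 and 0.0281 to 0.0455 in the same order. The proximal score difference on X (-0.03) was -0.0397 in the set, -0.0216 at 1301 bp to 10 kb, -0.0145 for the proximal 20% and between -0.0291 and -0.0258 without 1 replicate. On 2L (0.03) it was 0.0042 at 1301 bp to 10 kb, reversed to -0.0039 for the proximal 20%, and was 0.0119 to 0.0427 without 1 replicate. On 3L (0.0078) it changed sign within the replicate spread, to -0.0163 for the proximal 20%, and was -0.022 to 0.0376 without 1 replicate. On chromosome 4 (-0.13) it was -0.0627 in the set and -0.158 to -0.103 in single replicates. Shares with a counterpart in the proximal parts fell to 61.8% (replicate 1) and 60.2% (replicate 2) under reciprocal overlap of at least 50%, and were 89.7% and 93.4% among clusters at or above the median score. On chromosome 4 they were 78.0% (replicate 1) and 57.1% (replicate 2) under the reciprocal rule, and 100% and 94.7% among clusters at or above the median score. On the Het sequences the replicate 1 share was 100% and the replicate 2 share 80.0% at or above it. No share over the whole lists was taken under these rules, so whether a class then differed from its list was not tested. The 363 set members became 376 with 2RHet added, 185 at or above the median score and 871 with the proximal 20%, all by construction. For the remaining shifts, the cause was not tested. With depth unknown, a cluster missing from a list cannot be called absent. No paired analysis was possible because ChIP and input share numbers but no input has values of its own in the lists.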
